A study of Mus musculus with 48 samples.

Results

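The strain difference in spleen at time 1 was the subject here: spleens of A/J mice against spleens of C57BL/6J mice, compared over every probe set of the array that is not a control. Of the 48 arrays of the study, 6 were chosen by their titles, 3 A/J spleens of time 1 and 3 C57BL/6J spleens of time 1, all from 1 array run. The study profiled liver, heart, spleen and lung of these inbred strains at 2 times, in 16 groups of 3 arrays, on the Affymetrix MG-U74Av2 oligonucleotide array. The replicates were described as 3-month-old male littermates, and tissue was homogenized in Trizol before labelling of about 20 µg of total RNA. The labels used here do not say what time 1 and time 2 stand for, and no treatment is named for either strain. A level below is the deposited log2 value of a probe set, and a difference is the A/J mean minus the C57BL/6J mean on that scale, so that 1 unit is a 2-fold difference.

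The spleen filters blood and houses B cells, T cells, natural killer cells and several kinds of macrophage, and in mice its red pulp also makes red blood cells throughout adult life. A/J and C57BL/6J mice differ across the genome, including in their H2 haplotype (the mouse major histocompatibility complex, which presents peptides to T cells), in their immunoglobulin heavy chain haplotype and in their beta-globin haplotype. C57BL/6J mice carry a deletion in the promoter of H2-Ea and a partial deletion of Nnt, a mitochondrial transhydrogenase, while A/J mice lack complement component C5, encoded by Hc. In tissue RNA, fewer cells of a type and less RNA per cell cannot be told apart.

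Transcripts of the exocrine pancreas, which lies against the spleen, stood high on 3 of the 6 arrays. The mean over 16 acinar genes was 11.85, 9.17 and 11.32 on A/J arrays 1 to 3, against 9.05, 10.97 and 8.97 on C57BL/6J arrays 1 to 3. Prss2, a trypsinogen, was at 13.41, 8.20 and 13.29 in A/J and at 7.75, 13.06 and 7.65 in C57BL/6J, and Cela1, an elastase, was at 14.37, 11.79 and 14.34 in A/J and at 11.54, 14.22 and 11.20 in C57BL/6J. The rich arrays were thus A/J 1, A/J 3 and C57BL/6J 2, the strains overlapped, and none of the 16 genes passed the test at an adjusted p below 0.05, although all 16 had a positive difference, with a median of 1.18. Among the other 42 arrays, C57BL/6J spleens of time 2 reached 11.87 and 10.77, and the 36 arrays of other tissues lay between 8.66 and 11.63. Counts are therefore also given without the 3 rich arrays, which leaves 1 A/J and 2 C57BL/6J arrays and assumes that the single A/J spleen varies like the C57BL/6J pair.

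**Figure D1:**
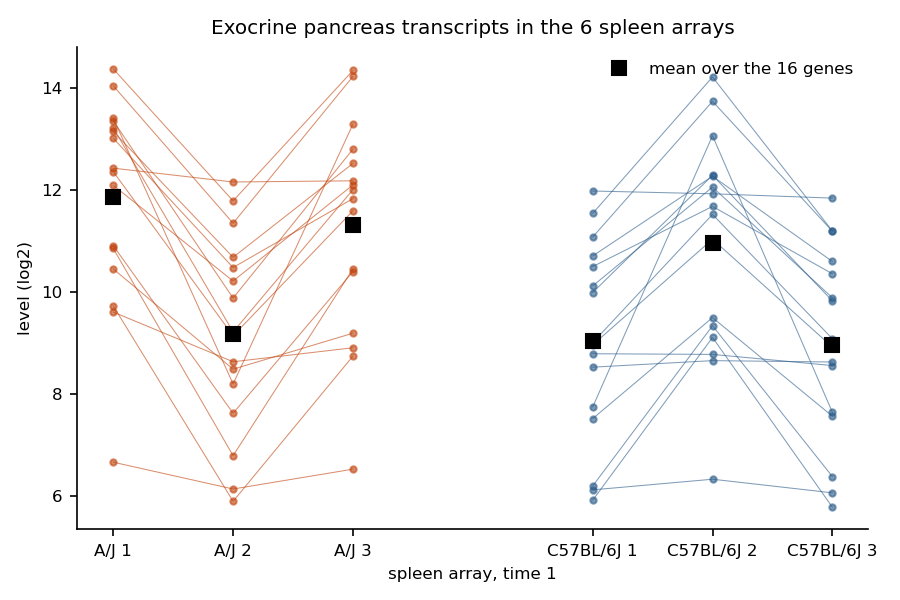
Level (log2) of the 16 exocrine pancreas genes on each spleen array of time 1, A/J on the left and C57BL/6J on the right, with 1 line per gene and squares for the mean over the genes. The means of A/J 1 (11.85), A/J 3 (11.32) and C57BL/6J 2 (10.97) lie above those of the other arrays, which range from 8.97 to 9.17.

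The 6 arrays were otherwise alike in scale. Their medians lay between 8.93 and 9.02, each had between 7 and 19 probe sets at its ceiling of 14.35 to 14.40, and the Gapdh 3' probe set exceeded the 5' one by 1.31 on A/J array 1 and by 0.71 to 0.88 on the others. The tissue label was borne out by spleen cell markers: the B cell gene Cd79b was at 12.93, 12.48 and 12.87 in A/J and at 12.86, 13.10 and 13.01 in C57BL/6J, and the T cell gene Cd3e was at 11.13, 10.85 and 10.99 in A/J and at 10.88, 11.05 and 11.14 in C57BL/6J. Neither gene passed the test.

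Of 12422 probe sets tested, 603 (4.85%) differed between the strains at an adjusted p below 0.05. A/J was higher at 233 of them (1.88% of all tested) and lower at 370 (2.98%). The difference was at least 2-fold at 75 probe sets, 15 higher and 60 lower in A/J, so the large differences lay mostly on the C57BL/6J side. The median difference over all probe sets was 0.03. Those with a single gene symbol numbered 506 and named 475 genes. Without the 3 pancreas-rich arrays 148 probe sets passed, 50 higher and 98 lower in A/J, of which 121 were among the 603. The p-values measure the spread between these animals only.

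Alad, which encodes the delta-aminolevulinate dehydratase of heme synthesis, had the largest positive difference of any named gene. It was at 13.11, 13.31 and 13.24 in A/J and at 11.37, 10.13 and 10.77 in C57BL/6J, a difference of 2.46 ± 0.25 (SE, n = 3 each) or 5.51-fold, with an adjusted p of 0.00154. It did not pass without A/J replicates 1 and 3, the arrays with an exocrine pancreas mean above 11. That fit leaves 1 A/J array, and Alad passed whenever any single array was left out. Every A/J spleen lay above every C57BL/6J spleen by more than the C57BL/6J range. Glo1, glyoxalase 1, which detoxifies methylglyoxal, was at 11.95, 11.70 and 11.65 in A/J and at 10.23, 10.09 and 9.91 in C57BL/6J (difference 1.69 ± 0.11 SE, adjusted p = 0.000106). A second Glo1 probe set gave a difference of 1.26, also past the test. Gch1, the first enzyme of tetrahydrobiopterin synthesis, was at 9.46, 9.82 and 9.91 in A/J, against 8.66, 7.92 and 8.16 in C57BL/6J (difference 1.48 ± 0.19 SE). The groups did not overlap for Glo1 or Gch1. How many of all probe sets had groups that did not overlap was not counted. A lack of overlap, here or below, therefore only describes the values of that gene.

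The other genes of the 14 with the largest positive differences were smaller in effect and mixed in role. Cd59a, which shields red cells and other cells from complement lysis, was at 10.80, 10.89 and 10.71 in A/J and at 9.87, 9.45 and 9.61 in C57BL/6J (difference 1.15). Xpo7, a nuclear exportin abundant in maturing red cells, was at 12.69, 12.79 and 12.65 in A/J and at 11.85, 10.69 and 11.71 in C57BL/6J, and its other probe set agreed in sign and call (1.29 and 1.23). The probe set at 1.29 did not pass when A/J array 1, 2 or 3 or C57BL/6J array 3 was left out. Nusap1, a spindle protein of dividing cells, was at 10.74, 11.11 and 10.93 in A/J and at 10.21, 9.66 and 9.75 in C57BL/6J. Sowaha (1.46), an ankyrin-repeat gene, and the formin Fhdc1 (1.104) had the widest C57BL/6J spread, with array 1 close to A/J, and neither passed the test without the 3 pancreas-rich arrays. The uncharacterized 1700097N02Rik (1.08), the membrane protein gene Emp1 (0.94) and the RING finger gene Rnf11 (0.92) completed the set together with 2 class I genes and a T cell receptor segment.

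For the class I genes H2-D1 and H2-K1 the sign depended on the probe set. H2-D1 differed by 1.36 at one probe set (12.54, 12.06 and 12.08 in A/J, against 10.80, 11.19 and 10.60 in C57BL/6J), by -0.31 at a second, also past the test, and by -0.15 at another, which was not. H2-K1 differed by 0.98 at one probe set and by -0.10 and -0.16 at the others, neither past the test. Trav9d-3, a T cell receptor alpha variable segment, differed by 0.97 at one probe set and by 0.16 and -0.07 at others that did not pass. These loci are polymorphic between the strains, and whether sequence variants under the probes contribute was not tested.

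**Figure D2:**
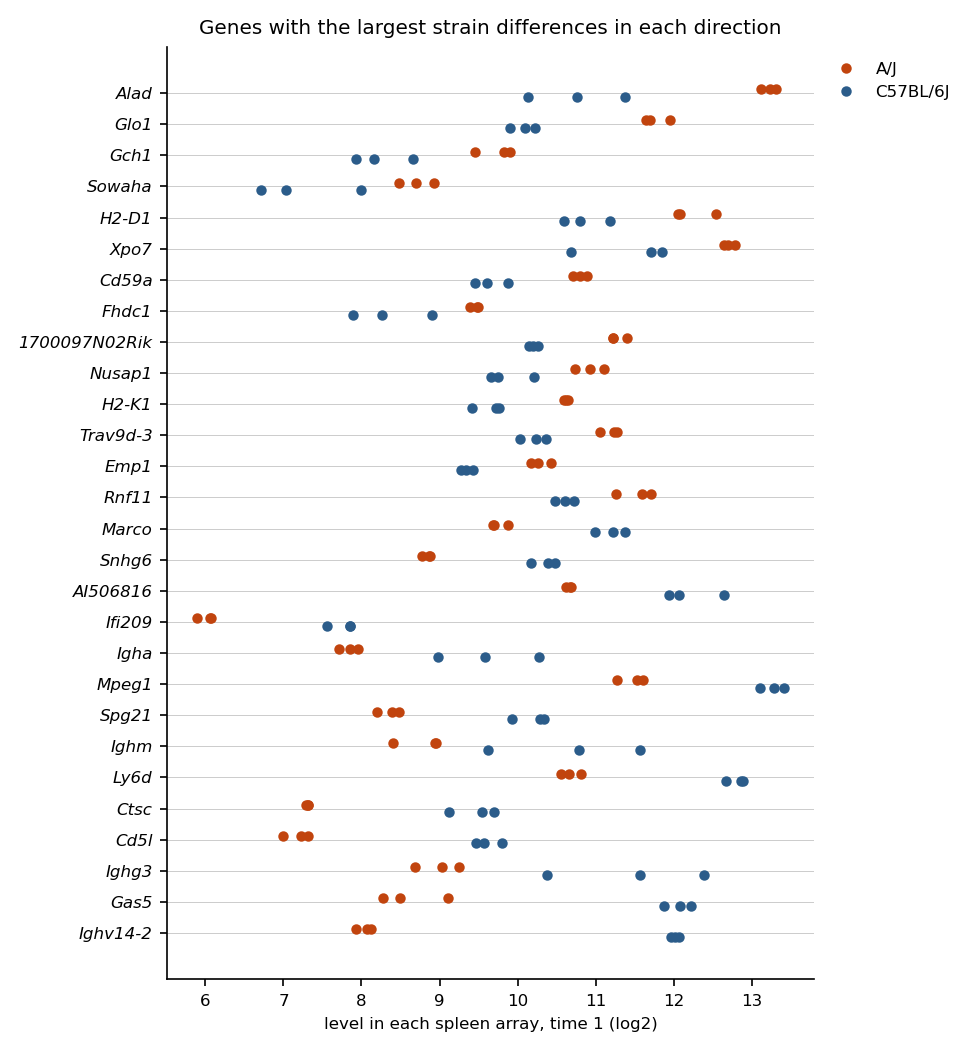
Level (log2) on each of the 6 spleen arrays of time 1 for the 14 named genes with the largest difference in each direction, A/J in red and C57BL/6J in blue. The 3 A/J values lie apart from the 3 C57BL/6J values for all 28 genes, from Alad (2.46) at the top to Ighv14-2 (-3.98) at the bottom. The genes were chosen as called with the largest differences, which favours such a gap.

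On the lower side, the first gene was an immunoglobulin heavy chain variable segment, Ighv14-2. It was at 8.07, 7.93 and 8.13 in A/J and at 11.97, 12.07 and 12.01 in C57BL/6J, 15.7-fold lower in A/J (difference -3.98 ± 0.08 SE, adjusted p = 5.65e-08). A second probe set of it differed by -0.60, past the test, and the last by 0.10, not past it. Gas5, a host gene of small nucleolar RNAs, was at 8.28, 8.50 and 9.11 in A/J and at 11.88, 12.08 and 12.22 in C57BL/6J (difference -3.43 ± 0.19 SE, 10.8-fold lower). Neither of its other probe sets, at -0.58 and 0.09, passed the test. Snhg6, another host of small nucleolar RNAs, differed by -1.51, while the other 5 measured genes of that kind, such as Snhg1 (0.18), did not pass.

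Among the most reduced genes were several of macrophages and other immune cells. Cd5l, a secreted protein of tissue macrophages, was at 7.31, 7.23 and 6.997 in A/J and at 9.47, 9.80 and 9.57 in C57BL/6J, 5.39-fold lower (difference -2.43 ± 0.11 SE, adjusted p = 1.66e-05). Ly6d, a surface marker of the B lineage, was at 10.55, 10.65 and 10.81 in A/J and at 12.86, 12.67 and 12.89 in C57BL/6J, 4.39-fold lower. Mpeg1, a pore-forming protein of phagocytes, was at 11.27, 11.54 and 11.61 in A/J, against 13.29, 13.42 and 13.11 in C57BL/6J (difference -1.80). In these 3 genes the spread within either strain was a small part of the gap between them. Ctsc, the cathepsin that activates granzymes and other serine proteases, differed by -2.14 at one probe set (7.32, 7.32 and 7.29 in A/J, against 9.12, 9.70 and 9.54 in C57BL/6J) and by -0.58 at a second. The last Ctsc probe set, at 9.82, 9.98 and 9.84 in A/J and at 9.79, 10.17 and 9.91 in C57BL/6J, did not differ past the test (-0.08). Whether a variant under the probes contributes was not tested.

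The rest of the 14 were Spg21 (-1.83), which encodes a protein that binds the T cell coreceptor CD4, Ifi209 (-1.74) of the interferon-inducible Ifi200 family, the uncharacterized AI506816 (-1.56), the scavenger receptor gene Marco (-1.44), Snhg6, and 3 immunoglobulin constant-region annotations. Ighg3 differed by -2.45 at its most changed probe set and Ighm and Igha by -1.89 and -1.77. Their probe sets did not agree. Of the other Ighg3 probe sets, one differed by 0.71, past the test, and Igha had one at 0.59, past the test, beside one at 0.80, not past it. The Ighm probe set with the highest level stood at 14.37, 14.35 and 14.38 in A/J and at 14.40, 14.36 and 14.36 in C57BL/6J, which is the ceiling. Ighm did not pass without the 3 pancreas-rich arrays, nor did Ighg3. Probe sets without a single symbol reached similar sizes, up to 3.86 higher in A/J for one at 11.004, 10.93 and 10.44 in A/J and at 6.83, 6.99 and 6.95 in C57BL/6J, and down to -3.99 for another, picked after their values were seen.

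The MHC class II pathway loads peptides for presentation to CD4 T cells. Of 14 measured members 7 passed the test as lower and 1 as higher, and the median difference was -0.43. Over all probe sets 2.98% were lower and 1.88% higher, and the median was 0.03. Without the 3 pancreas-rich arrays 7 members passed and the median was -0.47. H2-Ob, the beta chain of the inhibitory H2-O molecule of B cells, was at 10.54, 10.49 and 10.49 in A/J and at 11.95, 12.05 and 11.82 in C57BL/6J (difference -1.43 ± 0.08 SE, adjusted p = 4.53e-05). H2-Ab1, the beta chain of the classical I-A molecule, was at 12.25, 12.24 and 12.40 in A/J, against 13.57, 13.59 and 13.60 in C57BL/6J (difference -1.29 ± 0.07 SE, 2.44-fold lower). Both genes separated the strains by far more than either group's range. The H2 haplotype differs between the strains, and whether sequence variants under the probes of these and other class II genes contribute was not tested.

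The genes of the peptide-exchange molecule H2-M were also lower in A/J, with differences of -0.80 for H2-DMb2, -0.73 for H2-DMb1 and -0.56 for H2-DMa. H2-Eb1, the beta chain of I-E, was at 13.93, 13.76 and 13.88 in A/J and at 14.28, 14.24 and 14.36 in C57BL/6J (difference -0.44), close to the ceiling. Ifi30, a thiol reductase of the endosome, was lower too (difference -0.67). Ciita, the coactivator that drives class II transcription, was at 9.99, 10.04 and 9.98 in A/J and at 10.28, 10.22 and 10.28 in C57BL/6J, groups that did not overlap, but at -0.25 its adjusted p was 0.059. H2-Aa and Cd74, the alpha chain of I-A and the invariant chain, read between 14.21 and 14.40 on all 6 arrays and could show no difference there. H2-Ea alone of the 14 was higher in A/J, at 8.48, 8.56 and 8.38, against 7.78, 7.73 and 7.80 in C57BL/6J (difference 0.70 ± 0.07 SE, adjusted p = 0.00143).

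Class II promoters share a conserved set of boxes, of which the Y box is the simplest to read. The promoters of 4 members that were lower in A/J are shown because they hold this box in the stretch printed. They are the 150 bases before the annotated start in the RefSeq table on GRCm38.p6, 5′ to 3′, on chromosome 17, with each Y box (ATTGG, or CCAAT on the opposite strand) in capitals.
H2-Ob (chr17:34238755-34238904, + strand): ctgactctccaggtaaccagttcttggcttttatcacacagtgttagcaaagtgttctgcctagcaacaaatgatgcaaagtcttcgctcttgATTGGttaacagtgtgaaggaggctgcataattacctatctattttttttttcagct
H2-DMb1 (chr17:34153041-34153190, + strand): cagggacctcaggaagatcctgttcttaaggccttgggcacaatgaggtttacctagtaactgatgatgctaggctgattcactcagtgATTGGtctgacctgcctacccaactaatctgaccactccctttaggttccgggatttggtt
H2-DMb2 (chr17:34145099-34145248, + strand): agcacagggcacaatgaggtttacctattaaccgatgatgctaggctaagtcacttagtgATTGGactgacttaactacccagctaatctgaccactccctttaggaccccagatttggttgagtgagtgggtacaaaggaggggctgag
H2-Eb1 (chr17:34305717-34305866, + strand): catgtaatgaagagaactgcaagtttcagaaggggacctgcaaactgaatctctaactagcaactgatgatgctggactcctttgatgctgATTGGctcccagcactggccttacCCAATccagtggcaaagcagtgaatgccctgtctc
The Y box began 57, 61, 90 and 59 bases before the start in the order shown, and H2-Eb1 held a second at 35 bases. Promoters of 10 of the 14 members were in the table, in 11 windows of 300 bases, and 8 windows held the letters on either strand. Among all 32817 windows 37.4% did. The sequences are those of the reference genome, which is C57BL/6J, and the A/J sequence was not analysed here. In the 150 bases before the start, H2-DMa and Ifi30, which were also lower in A/J, held none, while H2-Oa, H2-Eb2 and H2-Aa, which did not pass the test, held one each. A match is a description of the letters and not of a bound site.

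Of 16 genes of MHC class I and peptide loading, 5 were lower in A/J and none higher, with a median of -0.24. Among all probe sets 2.98% were lower. In the spleens left without the pancreas-rich arrays 2 members passed. Tap1, a subunit of the peptide transporter, was at 10.77, 10.54 and 10.50 in A/J and at 11.64, 11.58 and 11.62 in C57BL/6J (difference -1.01 ± 0.09 SE, adjusted p = 0.000547). The immunoproteasome subunit Psmb9 (-0.60), the proteasome activator Psme1 (-0.58), the loading factor Tapbp (-0.47) and the class I gene H2-Q4 (-0.64) were the others. Whether sequence variants under their probes contribute was not tested. Tap2, the partner of Tap1, was at 10.32, 10.07 and 10.29 in A/J and at 10.17, 10.35 and 10.47 in C57BL/6J, which overlap (-0.10).

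Interferon-inducible GTPases, which act against intracellular pathogens, were lower in A/J for 5 of 8 measured genes and higher for none (median -0.43). The share lower among all probe sets was 2.98%. Gbp2 was at 8.66, 8.67 and 8.49 in A/J and at 9.41, 9.44 and 9.50 in C57BL/6J (difference -0.85 ± 0.08 SE), and Gbp3 was at 9.53, 9.65 and 9.55 in A/J and at 10.35, 10.36 and 10.45 in C57BL/6J (difference -0.81 ± 0.07 SE). Iigp1, Irgm1 and Ifi47 differed by -0.50, -0.45 and -0.40. Igtp stood at 9.61, 9.54 and 9.71 in A/J and at 9.16, 9.21 and 9.53 in C57BL/6J, a difference of 0.32 that did not pass. Of the 8, 2 passed without the 3 pancreas-rich arrays.

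Of 27 genes of the type I interferon response, 6 were lower and 2 higher in A/J, with a median of -0.24. The shares over all probe sets were 2.98% lower and 1.88% higher. C57BL/6J array 1 was the highest of the 6 for 17 of the 27, and the list mean was 9.09, 9.06 and 9.03 on the A/J arrays, against 9.42, 9.20 and 9.23 on the C57BL/6J arrays. At time 2 the list had 3 higher, 2 lower and a median of 0.09. Rsad2, an antiviral protein, was at 10.74, 10.70 and 10.50 in A/J and at 12.46, 11.46 and 12.16 in C57BL/6J (difference -1.38 ± 0.22 SE, adjusted p = 0.0125). Ifi204 (-0.61), Mx1 (-0.56), Trim21 (-0.44), Cxcl9 (-0.40) and Adar (-0.35) were the other lower genes. Mx1 is known to be defective in most laboratory strains, and its levels were low, at 6.15, 6.16 and 6.08 in A/J and at 6.92, 6.70 and 6.43 in C57BL/6J. Ifi202b, a relative of Ifi204 with a known C57BL/6 low-expression allele, was higher in A/J at 6.19, 5.97 and 5.87, against 5.28, 5.24 and 5.07 in C57BL/6J (difference 0.81), and Tor3a was higher by 0.43. Isg15 overlapped widely, at 10.004, 10.64 and 10.69 in A/J and at 11.49, 10.30 and 10.86 in C57BL/6J. Of the 27, 3 passed without the 3 pancreas-rich arrays.

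Macrophage genes were lower in A/J for 7 of 26 measured members and higher for none (median -0.15), where 2.98% of all probe sets were lower. C57BL/6J array 2, one of the pancreas-rich arrays, was the highest of the 6 for 15 of the 26, and the list mean was 10.34, 10.27 and 10.22 on the A/J arrays, against 10.60, 10.78 and 10.53 on the C57BL/6J arrays; the part of that array in the result was not tested beyond leaving it out. Besides Cd5l and Mpeg1 these were Marco, the scavenger receptor of marginal zone macrophages, at 9.87, 9.70 and 9.69 in A/J, against 10.99, 11.23 and 11.37 in C57BL/6J. Lyz2, lysozyme of myeloid cells, was at 12.33, 12.10 and 12.13 in A/J and at 12.92, 13.25 and 12.96 in C57BL/6J (difference -0.86 ± 0.11 SE). Nr1h3, a nuclear receptor for oxysterols, differed by -0.77, Aif1 by -0.54 and Csf1r, the receptor for macrophage colony-stimulating factor, by -0.54. Other markers of the same cells did not pass: Vcam1 was at 13.13, 13.07 and 12.85 in A/J and at 13.02, 13.21 and 12.90 in C57BL/6J, and the differences were 0.15 for Spic, needed for red pulp macrophages, and 0.16 for Cd68. Of the 26, 5 passed without the 3 pancreas-rich arrays.

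Natural killer and cytotoxic cell genes showed 6 of 31 lower, where 2.98% of all probe sets were lower, and none higher, with a median of -0.04, close to that of all probe sets. Ccl5, a chemokine of activated lymphocytes, was at 11.20, 10.90 and 10.82 in A/J and at 12.11, 12.41 and 12.34 in C57BL/6J (difference -1.31 ± 0.12 SE, adjusted p = 0.000658). Klrd1, the CD94 subunit of lectin-like receptors, was at 8.01, 7.73 and 7.93 in A/J and at 8.68, 9.03 and 8.77 in C57BL/6J (difference -0.94). Gzma (-0.65), the adaptor Tyrobp (-0.63) and the Ly49 receptors Klra7 (-0.56) and Klra3 (-0.42) followed, while perforin, Prf1, was at 8.58, 8.49 and 8.50 in A/J and at 8.51, 8.46 and 8.54 in C57BL/6J. Ly49 genes differ in number and sequence between inbred strains, and whether that contributes to their readings was not tested. Without the 3 pancreas-rich arrays 3 of the 31 passed.

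The B cell list had 4 of 27 genes lower and 1 higher, against 2.98% and 1.88% of all probe sets, with a median of -0.19. After Ly6d came the receptor component Cd79a (-0.61), Ms4a1, which encodes CD20 (-0.54), and Ly86 (-0.53), while the Fc receptor-like gene Fcrla was higher in A/J at 8.35, 8.18 and 8.35, against 7.33, 7.58 and 7.60 in C57BL/6J (difference 0.79). Ms4a1 was at 13.09, 13.22 and 13.37 in A/J and at 13.66, 13.74 and 13.89 in C57BL/6J, a narrow gap without overlap. Only 1 of the 27 passed without the 3 pancreas-rich arrays. Of 26 T cell genes Icos (-0.66) and Cd7 (-0.35) were lower and none higher (median -0.07), a count close to the 4.85% called over all probe sets, and neither passed without those arrays. Of 28 immunoglobulin genes, each read by its brightest probe set, 2 were lower: Ighv14-2, and a segment of another family at 11.32, 11.79 and 11.98 in A/J and at 13.003, 13.23 and 12.98 in C57BL/6J. The list's median was -0.01, and 2.98% of all probe sets were lower. Flt3 (-0.40), a receptor of dendritic cell precursors, was the only one of 16 dendritic cell genes past the test, where 4.85% of all probe sets passed.

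**Figure D3:**
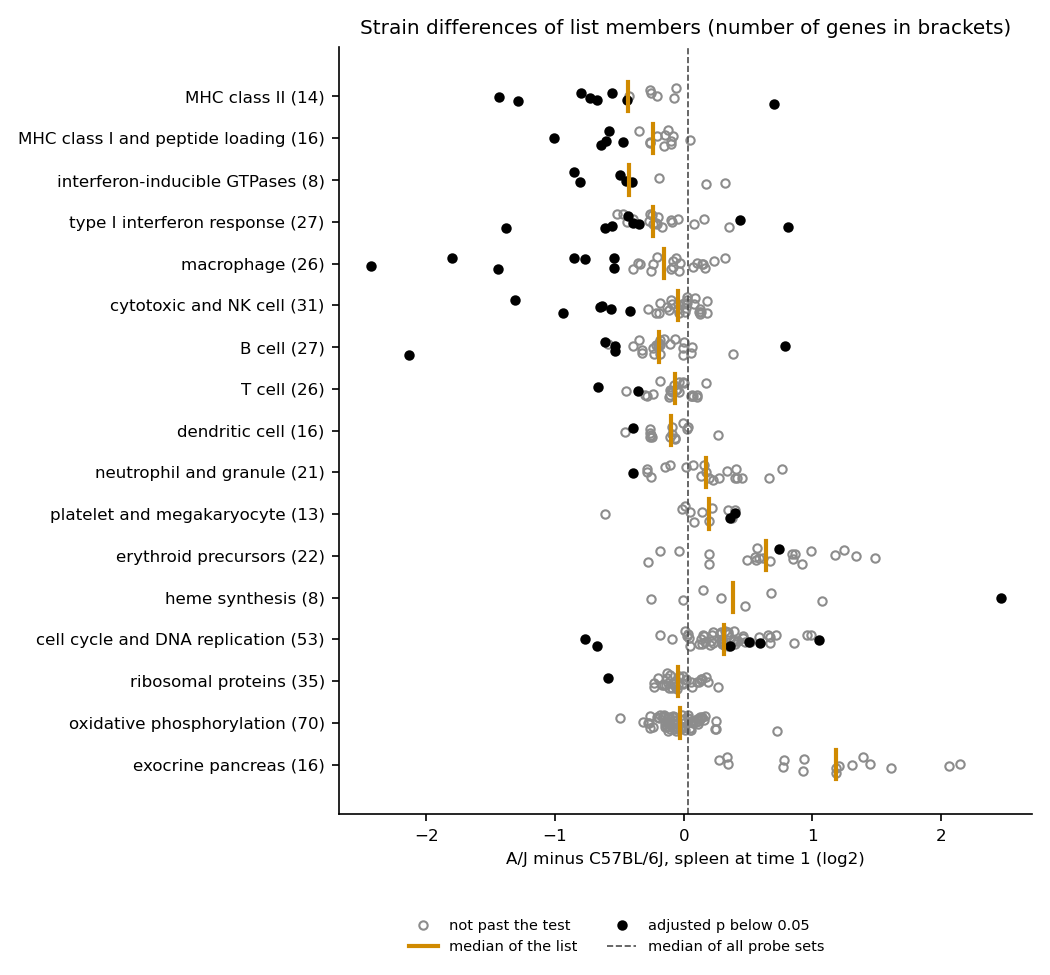
Difference (A/J minus C57BL/6J, log2) of each member of 17 gene lists in spleen at time 1, with filled points for members at an adjusted p below 0.05, an orange bar at the list's median and a dashed line at the median of all probe sets (0.03). The medians of MHC class II (-0.43) and the interferon-inducible GTPases (-0.43) lie to the left of the line, and those of the erythroid (0.64) and exocrine pancreas (1.18) lists lie to the right with almost no filled points.

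Red cell precursor genes had mostly positive differences, with a wide C57BL/6J spread. The mean over 22 erythroid genes was 11.35, 11.63 and 11.49 on A/J arrays 1 to 3 and 11.35, 10.35 and 10.81 on C57BL/6J arrays 1 to 3. C57BL/6J array 1 thus stood level with A/J array 1, and C57BL/6J array 2, one of the pancreas-rich arrays, was the lowest of the 6 for 20 of the 22 genes. The difference was positive for 19 of 22, with a median of 0.64, but 1 gene passed the test: Ank1, ankyrin of the red cell membrane, at 11.53, 11.86 and 11.82 in A/J and at 11.35, 10.61 and 11.04 in C57BL/6J (difference 0.74 ± 0.17 SE, adjusted p = 0.0498). It did not pass without the 3 pancreas-rich arrays, where the list's median was 0.54.

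The largest erythroid difference was that of Aqp1, the red cell water channel, at 11.53, 12.24 and 12.25 in A/J and at 11.39, 9.87 and 10.30 in C57BL/6J (1.48 ± 0.35 SE, adjusted p = 0.051). Hemgn, a nuclear protein of erythroblasts, was at 11.15, 11.33 and 11.20 in A/J, against 10.91, 8.71 and 10.05 in C57BL/6J (1.34 ± 0.44 SE, adjusted p = 0.119). Both had groups that did not overlap and a range of over 1 unit within C57BL/6J. With the exocrine pancreas mean of each array as a covariate 14 of the 22 genes passed.

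Of the 8 heme synthesis genes measured, Alad alone passed. Urod, the uroporphyrinogen decarboxylase, was at 11.34, 11.71 and 11.65 in A/J and at 11.21, 10.03 and 10.24 in C57BL/6J (1.07 ± 0.27 SE, adjusted p = 0.0563). Uros (0.68), Fech (0.48), Alas2 (0.29), Alas1 (0.15), Ppox (0.00) and Cpox (-0.26) completed the pathway, with a median over the 8 of 0.38. Alad was ordered over the arrays as its list mean was, with a wider gap between the strains: it was 1.74 units higher on the lowest A/J array than on the highest C57BL/6J array. Alas2, the erythroid first enzyme, was at 14.07, 14.12 and 13.72 in A/J and at 13.95, 13.46 and 13.63 in C57BL/6J, and overlapped. Its levels approached the ceiling of 14.35 to 14.40, and whether that narrowed its difference was not tested. Among 5 globins Hbb-b2, an adult beta-globin of the haplotype that A/J carries, was at 13.98, 14.11 and 14.10 in A/J and at 13.73, 13.71 and 13.70 in C57BL/6J (difference 0.35 ± 0.07 SE, adjusted p = 0.0272), and Hba-a1 was at its ceiling throughout.

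Genes of cell cycle and DNA replication were ordered over the arrays in a like way. The list mean was 9.59, 9.78 and 9.68 on A/J arrays 1 to 3, against 9.62, 9.15 and 9.33 on C57BL/6J arrays 1 to 3, and C57BL/6J array 2 was lowest for 43 of the 53 genes. The difference was positive for 49 of 53 (median 0.32), against 58.94% of all probe sets. Past the test as higher were 4, where 1.88% of all probe sets were. These were Nusap1 (1.05), the DNA ligase Lig1 (0.60), the centromere histone Cenpa (0.51) and the securin Pttg1 (0.36). The D cyclins Ccnd1 and Ccnd2 went the other way: Ccnd1 was at 10.09, 9.95 and 10.06 in A/J and at 10.47, 10.69 and 10.96 in C57BL/6J (difference -0.67), and Ccnd2 differed by -0.77. Ccnd3, also in the list, did not pass. Without the 3 pancreas-rich arrays 1 of the 53 passed, and with the exocrine pancreas mean as a covariate 18 did. That covariate also gave 11 of 27 B cell genes and 9 of 21 neutrophil genes, against 5 and 1 without it. The proliferation marker Mki67, at 10.20, 10.20 and 10.22 in A/J and at 9.87, 8.65 and 9.23 in C57BL/6J, had an adjusted p of 0.0625.

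**Figure D4:**
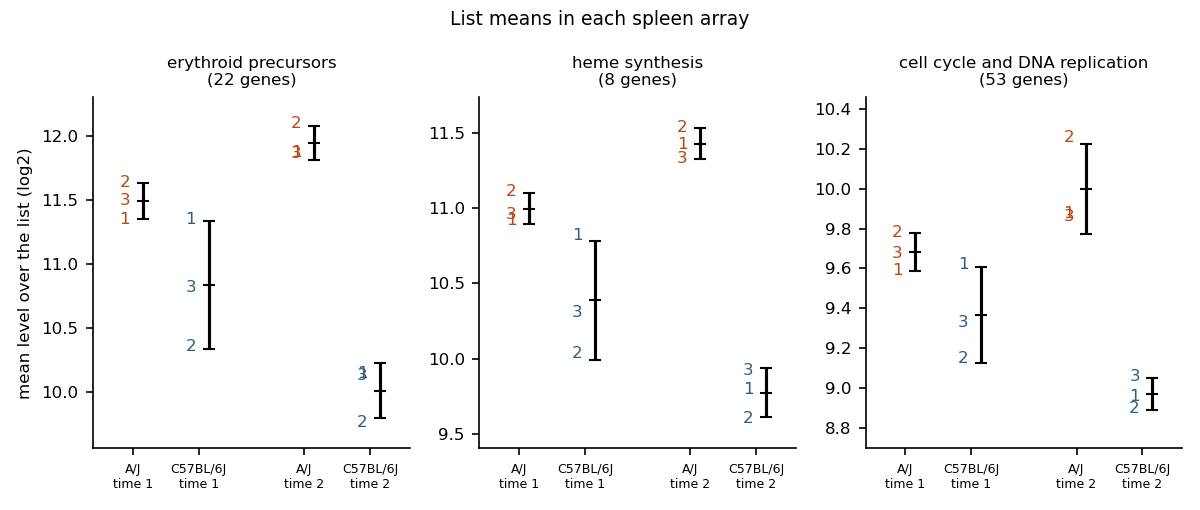
Mean level (log2) over the genes of 3 lists on each spleen array, A/J left of C57BL/6J at each time; digits are the replicate numbers and black bars the mean with SD over 3 arrays. At time 1 C57BL/6J array 1 lies level with A/J (11.35 for the erythroid list) and array 2 lies lowest (10.35), whereas at time 2 the strains lie apart.

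The remaining lists held few called genes. None of 70 oxidative phosphorylation genes passed (median -0.03), and of 35 ribosomal protein genes Rps4l, a copy of Rps4 (-0.59), was the one that did. Over all probe sets 1.88% were higher and 2.98% lower. Of 13 platelet and megakaryocyte genes Selp (0.40) and Vwf (0.36) were higher, and of 6 mesothelium genes Wt1 (0.40) and Krt18 (0.41). The tryptase Tpsb2 (0.48) was higher among 16 mast cell, basophil and eosinophil genes, Sparc (0.50) among 24 in stroma and Acta1 (0.39) among 15 in muscle. Of these Selp was at 9.39, 9.48 and 9.45 in A/J and at 9.05, 8.98 and 9.09 in C57BL/6J. Lower in A/J were Cxcr2 (-0.39) of neutrophils, Ccr6 (-0.33), Cstb (-0.40), Ctsh (-0.39), the plasma cell secretion gene Sec61b (-0.53), Klf4 (-0.48) and Serpinh1 (-0.46). Without the 3 pancreas-rich arrays none of the 15 genes just named passed. No gene of the islet, hepatocyte, adipocyte, stomach, endothelial, iron handling, B cell precursor, glucocorticoid or circadian lists passed.

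Genes with known strain alleles were read by their transcript level where the array holds them. Nnt was at 9.64, 9.60 and 9.44 in A/J and at 9.57, 9.56 and 9.79 in C57BL/6J (difference -0.08, adjusted p = 0.653), so this probe set did not separate the strains in spleen at time 1. Its spleen difference departed from that of liver, past the test, although liver was in another array run. Hc was at 7.69, 7.90 and 7.97 in A/J and at 7.79, 7.64 and 7.82 in C57BL/6J (0.11), against a liver difference of -2.35 past the test, and liver is where complement C5 is mainly made. Ahr, whose alleles differ in ligand affinity, gave 0.10.

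The same comparison in the spleens of time 2, from 6 other arrays, called 1108 probe sets (8.92%), 663 higher and 445 lower in A/J. Of the 603 of time 1, 264 passed there in the same direction (43.8% of the time 1 calls and 23.8% of the time 2 calls), 0 passed in the opposite direction, and 527 had the same sign. All 28 genes named above for their size had the same sign at time 2, and Ighm (-1.103) was the one that did not pass. Ighv14-2 differed by -4.11, Gas5 by -3.52, Cd5l by -2.50 and Ctsc by -2.14 at time 2. The erythroid list was called at 20 of 22 members as higher and at 1 as lower (median 1.72), heme synthesis at 7 of 8 as higher (1.55) and the cell cycle list at 38 of 53 as higher and 2 as lower (0.96). In the same comparison the exocrine pancreas list had a median of -1.71, with C57BL/6J arrays 1 and 3 rich in it, and 4 of 16 hepatocyte genes were higher in A/J (median 0.71), and their part in the other differences was not tested. MHC class II had 6 lower and 1 higher with a median of -0.52, the interferon-inducible GTPases 0 lower and 2 higher, Igtp (0.84) and Irgm2 (0.71), with a median of 0.27.

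The difference between the times was itself tested over the 12 spleen arrays. It passed at 26 probe sets (0.209%), 23 with a larger A/J minus C57BL/6J difference at time 2 and 3 with a smaller one, and 8 of the 26 were among the 603. The count was unstable: it was 0 without A/J replicate 3 of time 1, 1 without A/J replicate 1 of time 1 and 337 without A/J replicate 1 of time 2. Mki67, Nusap1, Ccna2, Gch1, Fech and Car2, a carbonic anhydrase of red cells, were among those with a positive term. Gch1 differed by 2.88 at time 2 and by 1.48 at time 1 (term 1.40, adjusted p = 0.0448), Nusap1 by 2.67 and 1.05, and Fech by 1.82 and 0.48. None of the 8 interferon-inducible GTPases passed, the smallest adjusted p being 0.0803, so their change of sign was not shown to be a difference between the times.

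In lung at time 1 the strains differed at 359 probe sets (2.89%) and in liver at 344 (2.77%). Of the 603 spleen calls 110 passed in lung in the same direction and 6 in the opposite one (the 110 are 18.2% of the spleen calls and 30.6% of the lung calls), and 65 passed in liver in the same direction and 5 in the opposite one (10.8% of the spleen calls and 18.9% of the liver calls). In all 3 tissues 43 probe sets passed with the same sign, and 31 passed at spleen time 2 as well. Among these 31 were Gas5 (-3.12 in lung and -2.52 in liver), Ctsc (-2.09 and -1.58), Spg21 (-1.44 and -1.30), Snhg6 (-1.37 and -1.15), Glo1 (1.61 and 1.42), the H2-D1 probe set (1.42 and 1.11), Tap1 (-0.96 and -0.45) and Hbb-b2 (0.63 and 1.66). For Gas5, Ctsc and Glo1 no departure from the spleen difference passed in lung or liver.

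The spleen difference departed from that of lung at 336 probe sets (2.70%) and from that of liver at 652 (5.25%), and 159 and 244 of these were spleen calls. Lung and liver arrays of time 1 were in array run 1 and the spleens in run 2, so tissue and run cannot be told apart. Of the 28 genes, 19 differed from both tissues. The 28 were chosen for the size of these same spleen differences, which favours such departures. Cd5l gave -0.05 in lung and -0.84 in liver against -2.43 in spleen, Ly6d -0.34 and -0.22 against -2.14, and Marco 0.15 and -0.35 against -1.44. Levels in lung and liver are not given here, and a gene scarcely expressed in a tissue could show little strain difference there. Alad was higher in A/J in lung (0.85) and liver (0.95) too, past the test in each, and its spleen difference exceeded both. Gch1 (0.17 in lung and 0.11 in liver), Cd59a (0.05 and 0.21) and Xpo7 (0.08 and -0.04) passed in spleen and not in lung or liver, and the test of the difference passed against both. Of the class II genes, H2-Ab1 differed by -1.25 in lung, where its departure from spleen did not pass, and by -0.38 in liver, where it did. H2-Ob and H2-Ea departed from both tissues.

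**Figure D5:**
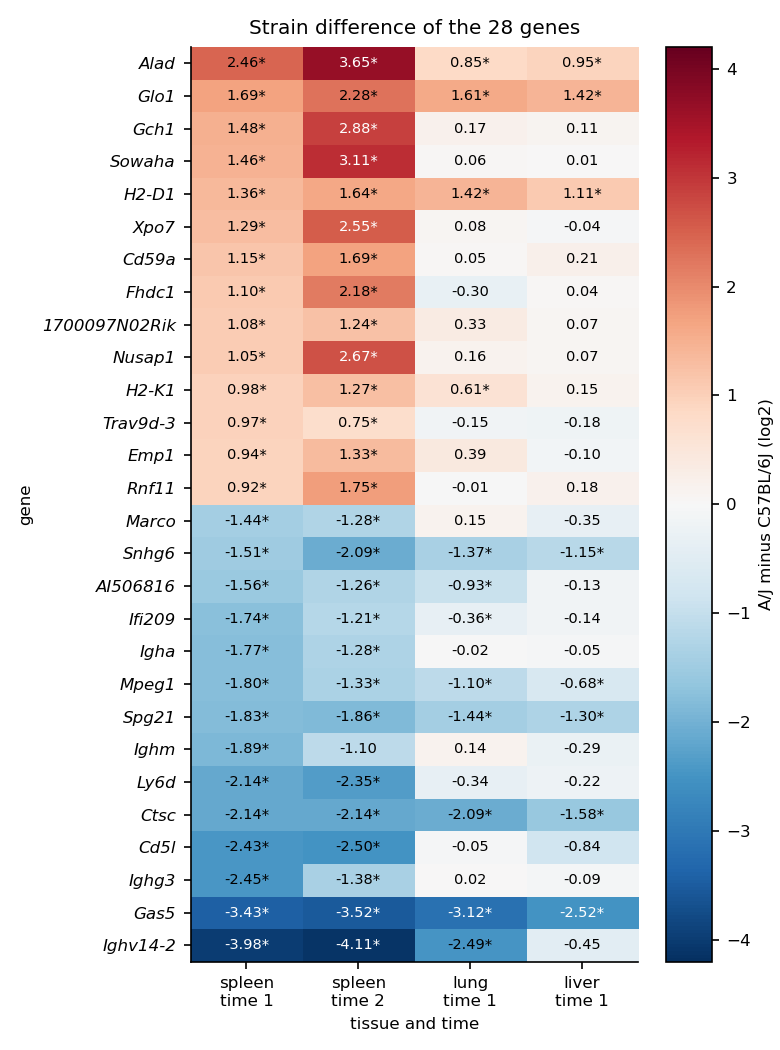
Strain difference (A/J minus C57BL/6J, log2, colour and printed value) of the 28 named genes in spleen at time 1 and time 2 and in lung and liver at time 1, with an asterisk at an adjusted p below 0.05. Gas5 (-3.43, -3.52, -3.12 and -2.52) and Glo1 are alike across the columns, whereas Cd5l (-0.05) and Ly6d (-0.34) are smaller in lung than in spleen.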

How the data were processed

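Spleen RNA of 6 mice was read on Affymetrix MG-U74Av2 arrays, 3 per strain. The authors deposited 1 table of values for all 48 arrays with no unit stated. Its range and shape are those of log2 values, so the deposited values were used as log2 without change. The method that made them comparable between arrays, and the software, are not given in the sources used here. For arrays the number of animals limits the precision. Array run and order were read from the array names in the labels, where the strains alternate.

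Of 12488 probe sets 66 controls were left out. Symbols came from the platform annotation, updated through Entrez identifiers: 10833 probe sets had 1 symbol, 396 had several and 1193 are unnamed here. Strain differences were fitted with limma 3.58.1 (R 4.3.3), a mean per group, lmFit and eBayes, p-values being adjusted by Benjamini-Hochberg across all 12422 probe sets, with 0.05 as the threshold. Differences between times used the 12 spleen arrays, and between tissues the 18 arrays of spleen, lung and liver at time 1. Named genes were the 14 with the largest difference in each direction among called probe sets with 1 symbol, up to 6 members with the smallest p from each of 40 gene lists, read by the brightest probe set, and every member of the known allele, heme synthesis, MHC class II and exocrine pancreas lists; genes outside this rule were named after their values were seen. The members and lists were chosen with earlier results of these data known.

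On simulated data with 200 changed probe sets the fit recovered 94.2% of those changed by 1 unit and 63.6% of those changed by 0.5. In the simulation 4.25% of calls were false. Whether the simulated arrays carried differences shared by many genes, such as the pancreas transcripts of the real arrays, is not recorded here. These rates therefore describe the simulated data only and give no false-call rate for the spleen calls. Replicate numbers were not used as a pairing, except in the replicate block. The alternatives tried were quantile normalization, median centring, a filter on low values, larger sets of arrays, another variance model, a replicate block, array weights, the exocrine pancreas mean as a covariate, and leaving arrays out. No 2 arrays were alike enough to be the same sample (smallest median absolute difference 0.0876).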

Additional observations from a re-analysis of the deposited data

Results flagged for a closer look

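The strain difference of 7 genes named for their size or held in a gene list was larger at time 2 than at time 1 by limma's test of the difference itself. The terms were 3.43 for Alb, 2.57 for Mki67, 2.19 for Car2, 1.62 for Nusap1, 1.40 for Gch1, 1.39 for Ccna2 and 1.35 for Fech. Alb, serum albumin, belongs to the hepatocyte list. The times were in different array runs, and time and run cannot be told apart. The number of probe sets passing this test was unstable, at 0 without A/J replicate 3 of time 1 and 337 without A/J replicate 1 of time 2. The exocrine pancreas median was 1.18 at time 1 and -1.71 at time 2, and its part in these terms was not tested. Of the 28 genes named for the size of their spleen difference, 19 departed from both lung and liver at time 1. That choice favours such departures, and spleen was in another array run than lung and liver. The spleen minus lung terms were positive for Alad (1.61), Fhdc1 (1.40), Sowaha (1.39), Gch1 (1.31), Xpo7 (1.21), Trav9d-3 (1.12), Cd59a (1.098), Rnf11 (0.93), Nusap1 (0.89) and 1700097N02Rik (0.75). They were negative for Ighg3 (-2.47), Cd5l (-2.38), Ighm (-2.03), Ly6d (-1.80), Igha (-1.76), Marco (-1.59), Ighv14-2 (-1.49), Ifi209 (-1.39) and Mpeg1 (-0.71). Groups of 3 arrays are too small for a test of single outlying samples.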

How the results depend on the processing

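The count of 603 (233 higher, 370 lower in A/J) became 362 (141 and 221) with all 12 spleen arrays, 1095 (537 and 558) with all 48 arrays, 1674 (797 and 877) with array weights, and 84 (23 and 61) without the 2 arrays whose exocrine pancreas mean exceeds 11, A/J replicates 1 and 3, which leaves 1 A/J array. It became 148 (50 and 98) without the 3 pancreas-rich arrays; that alternative and the 12 spleen arrays with the pancreas covariate (440) were added once the data had been seen. The higher share of calls was 38.6% and 47.6% with array weights, 49% with all 48 arrays, 23.1% with the replicate block and 29.9% with median centring. Leaving out 1 array gave 142 to 855 calls (35 to 370 higher, 107 to 485 lower): 264 without A/J replicate 2, 189 without A/J replicate 3, 184 without C57BL/6J replicate 2 and 142 without C57BL/6J replicate 3. The time 2 count ranged from 552 to 1231 without 1 array, the count by time from 0 to 337, that against lung from 215 to 557 and that against liver from 369 to 962. Quantile normalization left 12 calls by time.

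Deviations of same-numbered arrays correlated at -0.31, -0.58 and -0.08. Each same-numbered pair held 1 pancreas-rich array and 1 that was not, so these values cannot decide whether the numbers are a pairing. With the replicate block 173 probe sets passed (40 higher, 133 lower), and 6 passed by time, 191 against lung and 331 against liver. Of the 93 genes and probe sets called and named, 43 did not pass with the replicate block, 65 without the 2 arrays above 11, 49 without the 3 pancreas-rich arrays and 9 with quantile normalization. Of the 28 largest, Sowaha, Xpo7, Fhdc1 and Nusap1 did not pass with the block, and 12 did not without the 2 arrays above 11: Alad, Gch1, Sowaha, H2-D1, Xpo7, Fhdc1, Nusap1, H2-K1, Ighg3, Ighm, Igha and AI506816. The cause was not tested. Leaving out 1 array lost between 6 and 47 of the 93. Of the 28 largest, Sowaha, Xpo7, Fhdc1, Ighg3, Ighm and Igha each failed in at least 1 of those fits. Brightness limits H2-Aa, Cd74 and Hba-a1, which sit at the ceiling. Alas2, Hbb-b2 and H2-Eb1 lie close below it, and whether that narrowed their differences was not tested.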

Other observations

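Most of the 31 probe sets that passed with the same sign in spleen at both times, in lung and in liver lie outside the gene lists. Cap1, an actin-regulating protein, was higher in A/J by 0.84 in spleen at time 1, 1.56 at time 2, 0.95 in lung and 0.54 in liver. Mtm1, the phosphoinositide phosphatase myotubularin, gave 0.72, 1.59, 1.17 and 0.42 in the same order, and Hnrnpc, an RNA-binding protein, gave 0.57, 1.16, 0.62 and 0.94. Pdk1, a kinase that inhibits pyruvate dehydrogenase, was lower in A/J at -0.85, -1.12, -0.49 and -0.47, and Thumpd1 gave -0.89, -1.05, -0.83 and -0.41. Mapre1, a microtubule end-binding protein, gave -0.86, -0.68, -0.75 and -0.50. These genes were named after their values were seen.

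The share of probe sets called at spleen time 1 varied with the kind of probe set. It was 4.62% of 9614 with a plain name, 9.7% of 371 with the suffix s, 8.29% of 205 with the suffix g, 6.25% of 256 with the suffix i, 5.95% of 1075 with the suffix f and 2.89% of 901 with the suffix r. The suffixes s and f mark probes that match several transcripts or a gene family.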
